A study of Homo sapiens with 16 samples.

Results

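The 10 genes described here encode cytosolic and mitochondrial chaperones of the heat shock system and the co-chaperone BAG3. They were chosen by gene symbol: HSPB1, HSPB8, BAG3, DNAJB1, HSPA8, HSPH1, HSP90AA1, HSP90AB1, HSPD1 and HSPE1. They were measured by 36 of the 45253 probe sets that the 2019 platform annotation gives a single gene symbol, and make up 10 of the 18239 genes so named. Expression was measured on 1-colour Human Genome U219 arrays in the human neuroblastoma line SK-N-SH, whose cultures hold adrenergic, neuroblast-like cells and flatter mesenchymal cells. The 4 groups of 4 samples were an untreated one and 3 that received 10 µM risperidone, an antipsychotic drug, for 6, 24 or 48 h. By the protocol, the controls received only DMSO, the solvent of the drug, and the labels do not give their harvest time. All groups come from 1 cell line grown for 48 h to near confluence. The labels call the samples biological replicates and name no separate cultures: each p-value is set against the variation among these samples alone, which may be technical.

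Heat shock proteins keep other proteins folded or steer damaged ones to degradation. Many of their genes are switched on by the transcription factor HSF1, which binds heat shock elements, alternating repeats of GAA and its complement TTC, near the start sites. HSPA8 is the constitutive HSP70 of the cytosol. DNAJB1, an HSP40, delivers clients to HSP70 and stimulates its ATPase. HSPH1, an HSP110, and BAG3 exchange its nucleotide. BAG3 also binds the small heat shock proteins HSPB8 and HSPB1 and links HSP70 clients to selective autophagy. HSP90AA1 and HSP90AB1 are the inducible and constitutive cytosolic HSP90 forms, and HSPD1 with its lid HSPE1 forms the mitochondrial chaperonin.

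The sequences just before the start sites show where the HSF1 recognition letters lie in these genes. RefSeq promoter windows on build GRCh38.p14 were found for all 10 genes, in 16 windows of 300 bases, 250 before and 50 after a start. Printed are the 250 bases before the start of the 2 genes that fell most (BAG3 and HSPB1), of the gene that rose and returned (DNAJB1), and of an HSP70 and an HSP90 gene whose levels moved little. Each is written 5′ to 3′ on the strand of its gene, and capitals mark heat shock units.
BAG3, chr10:119651130-119651379, plus strand: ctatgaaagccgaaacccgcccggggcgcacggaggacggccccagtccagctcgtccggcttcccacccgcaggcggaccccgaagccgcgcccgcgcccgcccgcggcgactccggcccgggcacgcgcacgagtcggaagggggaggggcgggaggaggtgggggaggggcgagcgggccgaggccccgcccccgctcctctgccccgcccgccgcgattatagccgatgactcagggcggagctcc
HSPB1, chr7:76302423-76302672, plus strand: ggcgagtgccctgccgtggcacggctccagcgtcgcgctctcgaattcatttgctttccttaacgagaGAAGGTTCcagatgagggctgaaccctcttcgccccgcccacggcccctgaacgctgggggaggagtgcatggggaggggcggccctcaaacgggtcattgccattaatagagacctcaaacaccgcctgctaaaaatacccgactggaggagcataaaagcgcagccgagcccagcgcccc
DNAJB1, the second of 3 windows, chr19:14518398-14518647, minus strand: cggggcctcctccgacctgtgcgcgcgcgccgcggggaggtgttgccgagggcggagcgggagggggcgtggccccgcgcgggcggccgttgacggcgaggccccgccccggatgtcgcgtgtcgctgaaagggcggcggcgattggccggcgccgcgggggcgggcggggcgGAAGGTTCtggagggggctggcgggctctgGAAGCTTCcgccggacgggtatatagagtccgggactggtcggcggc
HSPA8, chr11:123062137-123062386, minus strand: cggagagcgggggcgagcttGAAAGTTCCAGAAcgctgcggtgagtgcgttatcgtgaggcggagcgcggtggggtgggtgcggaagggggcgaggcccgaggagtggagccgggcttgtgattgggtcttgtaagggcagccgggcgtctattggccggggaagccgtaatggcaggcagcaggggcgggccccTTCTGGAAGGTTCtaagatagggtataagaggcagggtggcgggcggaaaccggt
HSP90AA1, the downstream start, chr14:102087045-102087294, minus strand: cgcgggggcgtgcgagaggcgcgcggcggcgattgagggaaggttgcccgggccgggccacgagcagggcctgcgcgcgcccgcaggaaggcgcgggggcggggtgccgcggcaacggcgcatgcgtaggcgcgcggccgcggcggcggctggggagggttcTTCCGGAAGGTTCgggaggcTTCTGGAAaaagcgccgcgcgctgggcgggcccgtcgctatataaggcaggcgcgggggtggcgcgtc
The letters searched were the 2-unit forms GAANNTTC and TTCNNGAA and the 3-unit forms GAANNTTCNNGAA and TTCNNGAANNTTC, the last pair being each other's complement, so every match was found on both strands and 3-unit matches contain 2-unit ones. Of 35116 windows of this length in the table, 13.5% held a 2-unit form and 0.49% a 3-unit form. Of the 27305 genes with a window, 16.2% held a 2-unit and 0.608% a 3-unit form in at least 1. Of the 10 genes, 4 held a 3-unit form in at least 1 window. HSPA8 had it at 230 and 55 bases before the start, HSP90AA1 at 88, HSP90AB1 at 165 and 112, and HSPD1 at 245 and 240 (first base of each match). For HSP90AA1, HSP90AB1 and HSPD1 these were the starts of windows 2, 3 and 2, and their other windows held no 3-unit form. The HSPD1 matches overlap each other. HSPB1, HSPB8 and DNAJB1 held 2-unit forms only, in HSPB1 at 182 bases before the start, in HSPB8 at 88 before and at base 5 from its start, and in DNAJB1 at 77 and 47 before the start printed and at base 2 from another. No match lay in the windows of BAG3, HSPH1 and HSPE1, which says only that these letters are not in these windows. HSPD1 and HSPE1 lie head to head on chromosome 2, with 104 bases between them.

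The values are log2 RMA values per probe set (robust multi-array average, which corrects background, equalises the intensity distributions of the arrays and summarises the probes). The arrays ranged from 2.57 to 13.98, with array medians of 4.50 to 4.62. Over the 13680 genes tested, any 2 arrays of a group correlated at r = 0.996 to 0.999, and an untreated with a treated array at 0.968 to 0.978. Each gene is given by its brightest probe set. Groups were compared with limma over 13680 genes, after the dimmest 25% were left out, and a gene is said to have risen or fallen where its adjusted p is under 0.05. Of the genes called at 6 h, 68.7% were higher, but 49.3% after cyclic loess scaling, with 67.6% and 49.3% at 24 h and 63.1% and 49.0% at 48 h, so the directions of small changes depend on the scaling. The cell-state markers moved too. A list of 20 mesenchymal markers averaged 9.04 to 9.32 in the untreated arrays against 6.57 to 6.91 in the treated ones, and 19 of 20 fell at each time (medians −2.23, −2.12 and −2.41), TWIST1 being the exception. A list of 18 adrenergic markers averaged 10.21 to 10.26 untreated and 10.67 to 10.83 treated. In untreated cells HAND2 read 12.47, PHOX2A 9.78 and TH only 4.90. Of the 18, 17, 16 and 16 rose at 6, 24 and 48 h, against 36.6%, 35.3% and 36% of all genes, and 1, GAP43, fell at 48 h (−0.21). Of 10 markers of blood, endothelial, epithelial and muscle cells, 4 (PTPRC, CD14, CDH5 and CDH1) were below the dim limit and 1, CD68, fell, with the list averaging 3.87 to 3.98 untreated and 3.72 to 3.85 treated. The part of these shifts in the results below was not tested. In bulk RNA, fewer cells of a type and less RNA per cell cannot be told apart.

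All 10 genes passed the dim limit. At 6 h, 4 of 10 changed (1 higher, 3 lower), against 53.3% of all genes tested. At 24 h it was 3 (1 higher, 2 lower), against 52.1%, and at 48 h 5, all lower, against 57% in either direction and 21% lower (3 without untreated replicate 3). The groups of treated and untreated arrays did not overlap for 4, 3 and 4 genes, against 45.7%, 46.3% and 47.7% of all genes. Counted in either direction, the shares called, 40%, 30% and 50%, were under those of all genes, while the 5 of 10 lower at 48 h stand beside 21% lower over all genes. With 10 members nothing particular to them is read from these counts. The median change of the 10 was −0.03, −0.03 and −0.11 at the 3 times, beside 0.09, 0.09 and 0.08 over all genes. By their brightest probe sets, the members differed from each other in size. BAG3 fell by 4.08- to 5.82-fold and HSPB1 by 1.83- to 2.05-fold. DNAJB1 rose at 6 and 24 h, where 14.5% and 20.3% of all genes rose at least as far. It came back by 48 h in 2 of its 3 probe sets. The other 7 stayed within 0.19 of their untreated means. Some of their dimmer probe sets moved further, such as 1 of HSPE1 (0.39 at 24 h) and 1 of HSPH1 (−0.38 at 48 h).

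**Figure D1:**
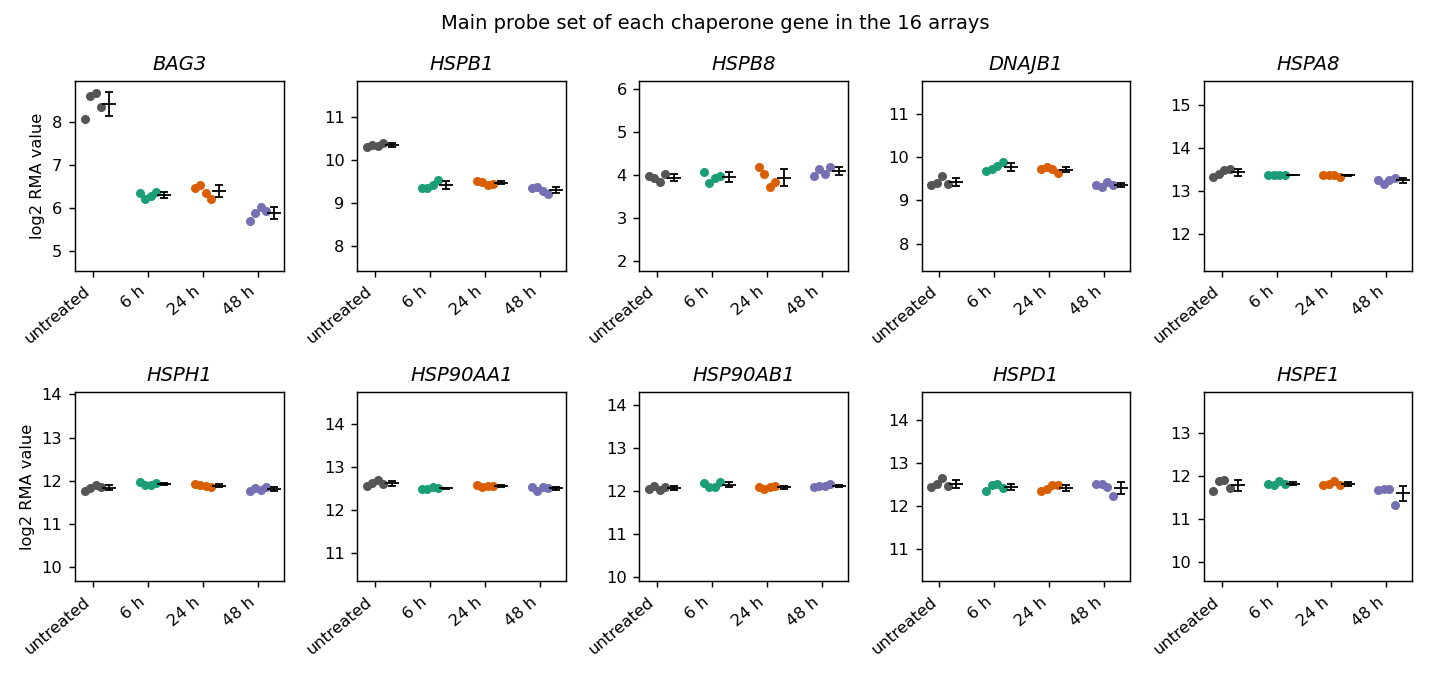
Log2 RMA value of the main probe set of each of the 10 genes in the 16 arrays, by group, with bars for the mean ± SD of 4 arrays; every panel spans the same number of log2 units. The BAG3 and HSPB1 points of all treated arrays sit below all untreated points, the DNAJB1 points are up at 6 and 24 h only, and HSPB8 lies near the bottom of the scale.

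BAG3, at chr10:119651380-119677819, was the member that fell furthest. Its only probe set read 8.06, 8.34, 8.60 and 8.66 in the untreated arrays. At 6 h it read 6.21, 6.27, 6.35 and 6.37, and at 24 h 6.21, 6.34, 6.47 and 6.52. At 48 h it read 5.69, 5.88, 5.92 and 6.01. Every treated array lay below every untreated one, and every 48 h array below every earlier treated array. Against untreated, BAG3 was 4.33-fold lower at 6 h (log2 change −2.12 ± 0.11, SE, n = 4 per group; adjusted p = 4.14e-11), 4.08-fold at 24 h (−2.03; 7.91e-11) and 5.82-fold at 48 h (−2.54; 3.39e-12). Of the 13680 genes, 223, 202 and 152 fell at least as far, or 1.63%, 1.48% and 1.11%. The order of its levels was untreated, then 24 h and 6 h, which did not differ beyond their spread (0.09; adjusted p = 0.831), then 48 h, which was lower than 24 h by 0.51 (adjusted p = 0.00208). BAG3 stayed lower in each of 19 other fits at all 3 times. Its single probe set has the suffix _s_at, which marks probes shared by several transcripts, so no second probe set of the gene could be set beside it.

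HSPB1, the small heat shock protein HSP27, at chr7:76302673-76304292, fell less. It read 10.29 to 10.40 in the untreated arrays, with 10.33 and 10.34 between. The 6 h arrays read 9.34, 9.36, 9.42 and 9.54, the 24 h arrays 9.43, 9.45, 9.48 and 9.51, and the 48 h arrays 9.20, 9.29, 9.35 and 9.37. Every treated array again lay below every untreated one. The change was −0.93 ± 0.05 at 6 h (SE, n = 4 per group; 1.90-fold; adjusted p = 1.18e-10), −0.87 at 24 h (1.83-fold; 2.80e-10) and −1.04 at 48 h (2.05-fold; 2.17e-11), and 618, 627 and 591 genes fell at least as far. The 3 treated levels lay close together: 6 and 24 h did not differ beyond their spread (0.05; adjusted p = 0.750). The step from 24 to 48 h, −0.17 with adjusted p = 0.0233, was lost without 24 h replicate 1 or 2 or 48 h replicate 3 or 4, and with every probe set tested. HSPB1 is measured by 1 probe set of the _x_at class, whose probes can bind other transcripts, and no separate probe set tells them apart.

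HSPB8, the partner that forms a complex with BAG3, was near the bottom of the scale. Its brightest probe set read 3.83 to 4.01 untreated and 3.71 to 4.19 over the 12 treated arrays, while the lowest gene mean tested was 3.65. The groups overlapped at every time. The changes were 0.01, 0.00 and 0.15, with 95% intervals of −0.18 to 0.19, −0.18 to 0.18 and −0.04 to 0.33 and adjusted p of 0.951, 1 and 0.163. Its second probe set, at 3.31 to 3.51 in group means, also passed no test. At such levels the array shows little of a change, so HSPB8 transcript was not detectably altered, and the BAG3 partner cannot be said to have kept its level.

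The mesenchymal markers fell in the same arrays as BAG3 and HSPB1, with ranges given above, and their part in these 2 falls was not tested. The 3 tested genes whose pattern over the 16 arrays was most like that of BAG3 were TUBB6, a tubulin (Pearson r = 0.991), PLAUR, the urokinase receptor (0.990), and COTL1, an actin-binding protein (0.990). Over the 12 treated arrays alone the values were 0.867, 0.904 and 0.800. For HSPB1 they were NID1, a basement membrane protein (0.988), EPHA2, an ephrin receptor (0.988), and CLIC1, an intracellular channel protein (0.987), and among treated arrays 0.647, 0.777 and 0.647. BAG3 and HSPB1 correlated with each other at 0.981 over 16 arrays and 0.696 over the 12 treated ones. The points share the gap between untreated and treated arrays, so these are descriptions of that gap more than of the spread within groups. The genes most like HSPB8 reached only 0.796 (SIRT7), 0.787 (SHISA6) and 0.780 (NRAP).

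DNAJB1, at chr19:14514769-14560391, rose early and then returned. Its brightest probe set read 9.37, 9.39, 9.40 and 9.56 untreated. It read 9.69, 9.73, 9.79 and 9.90 at 6 h and 9.63, 9.72, 9.73 and 9.77 at 24 h, all above the untreated arrays. At 48 h it read 9.32, 9.36, 9.36 and 9.43, within or just below them. The rise was 1.27-fold at 6 h (0.35 ± 0.06, SE, n = 4 per group; adjusted p = 5.19e-05) and 1.22-fold at 24 h (0.28; 0.000378), and 14.5% and 20.3% of all genes rose at least as far. At 48 h the change was −0.06 (95% interval −0.18 to 0.05; adjusted p = 0.353). The later fall was tested directly: 48 h was lower than 24 h by 0.35 (adjusted p = 0.000196; 0.19 with the mean of probe sets) and lower than 6 h by 0.41 (2.95e-05). The 6 and 24 h rises were called in all 19 other fits, at 0.26 to 0.39 and 0.20 to 0.33, while the 48 h value was called in 1, after cyclic loess (−0.14; adjusted p = 0.0306). A second probe set, at a mean of 7.53, followed the same course (0.43, 0.27 and −0.06, the first 2 higher). The third, at 7.89, rose at 6 h (0.18) and at 48 h (0.16) and not at 24 h (0.05), so the return at 48 h was seen by 2 of 3 probe sets.

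HSPA8, at chr11:123057489-123062462, read in the top range of the arrays and fell slightly by 48 h. It read 13.33, 13.39, 13.48 and 13.51 untreated, 13.36 to 13.38 at 6 h and 13.33 to 13.37 at 24 h. The 48 h arrays read 13.16, 13.25, 13.26 and 13.30, all below every other array. The 48 h change was −0.19 ± 0.05 (SE, n = 4 per group; 1.14-fold; adjusted p = 0.00216), and it was called without each of the 8 arrays in turn. The 6 and 24 h changes, −0.06 and −0.07, passed no test (adjusted p = 0.285 and 0.228), though the first did with the mean of probe sets (−0.09) and the second after renewed quantile scaling (−0.12). By probe set, 2 of 7 fell at 6 h (−0.24 and −0.16, the latter near 3.4) and none at 24 h, while 4 fell at 48 h, from −0.16 to −0.21, and none rose. Of those 4, 1 read near 3.6 and says little.

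HSPH1, at chr13:31134973-31162388, gave different answers by probe set. The brightest read 11.76 to 11.90 untreated, 11.90 to 11.96 at 6 h, 11.85 to 11.93 at 24 h and 11.75 to 11.85 at 48 h, with overlap at each time. Its changes of 0.09, 0.05 and −0.03 passed no test (adjusted p = 0.0733, 0.310 and 0.530). The 6 h value was called in 4 of 19 other fits: with each array's median subtracted (0.13; adjusted p = 0.00636), without untreated replicate 3 (0.11; 0.0358), with a trended and robust variance prior (0.0262) and with the dimmest 50% of genes left out (0.0482). The 48 h value was called with the mean of its probe sets (−0.13; 0.00488). Of 8 probe sets 3 fell at 48 h, by 0.38, 0.24 and 0.23, and 2 of those also at 24 h, by 0.28 and 0.26. The one that fell most read 10.26 to 10.45 untreated, 10.28 to 10.33 at 6 h, 10.05 to 10.12 at 24 h and 9.91 to 10.06 at 48 h, so its last 2 groups lay clear of the untreated arrays. The other 5, including the 3 brightest, were not called, and which transcripts each probe set reads was not analysed here. The genes most like HSPH1 in pattern were POC1A, RBM4 and MED27 (r = 0.913, 0.911 and 0.898).

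By the brightest probe set that names each alone, the HSP90 genes barely moved. Brighter probe sets shared with pseudogene symbols, described at the end, were not tested. That of HSP90AA1 read lower in all treated than in all untreated arrays, and that of HSP90AB1 overlapped. HSP90AA1, at chr14:102080742-102139749, read 12.56 to 12.68 untreated, 12.48 to 12.52 at 6 h, 12.52 to 12.58 at 24 h and 12.44 to 12.53 at 48 h. The 6 and 48 h arrays lay below the untreated ones, and the 24 h arrays overlapped them. The change was −0.12 at both 6 and 48 h (± 0.04, SE, n = 4 per group; adjusted p = 0.0210 and 0.0190) and −0.07 at 24 h (0.178; called after cyclic loess, −0.11, and renewed quantile scaling, −0.10). The 6 h call was lost without untreated replicate 3 (adjusted p = 0.0615), with the array medians subtracted (0.105), with the mean of its probe sets (0.154), with every probe set tested (0.0635) and with only the 8 arrays compared (0.0639). The 48 h call was lost without untreated replicate 3 (0.0584) or 48 h replicate 2 (0.0649), with every probe set tested (0.0576) and with only 8 arrays (0.0988), while with the mean of probe sets the 48 h value was −0.18. Its other probe set fell at 48 h only (−0.25; adjusted p = 0.00744). HSP90AB1, at chr6:44246194-44253883, read 12.01 to 12.10 untreated, 12.08 to 12.20 at 6 h, 12.03 to 12.12 at 24 h and 12.08 to 12.15 at 48 h. Its groups overlapped, and changes of 0.08, 0.02 and 0.05 passed no test (0.12 at 6 h with array medians subtracted did), the widest interval reaching from −0.01 to 0.17.

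By their brightest probe sets, the chaperonin pair was nearly level. HSPD1, at chr2:197486584-197500274, read 12.45 to 12.65 untreated, 12.35 to 12.52 at 6 h, 12.35 to 12.50 at 24 h and 12.23 to 12.51 at 48 h. Its changes of −0.08, −0.09 and −0.10 passed no test (adjusted p = 0.345, 0.257 and 0.211; called at 24 h after cyclic loess, −0.14), and none of its 8 probe sets was called against untreated, 2 of them near the bottom of the scale. HSPE1, at chr2:197500379-197503449, read 11.64 to 11.90 untreated, 11.80 to 11.87 at 6 h, 11.78 to 11.87 at 24 h and 11.33 to 11.69 at 48 h. Its 48 h change of −0.19 (adjusted p = 0.0443) left the groups overlapping, and 48 h replicate 4 read 11.33 where the other 3 read 11.67 to 11.69. Without that array it was −0.10 (adjusted p = 0.168), and without untreated replicate 2 or 3 the adjusted p was 0.119 or 0.131. It was also lost with the mean of its probe sets (−0.03; 0.641), with every probe set tested (0.0652), with array medians subtracted (0.0603), with no dim limit (0.0555) and with only 8 arrays (0.121). A dimmer HSPE1 probe set rose instead, by 0.31, 0.39 and 0.16: it read 8.47 to 8.69 untreated, 8.79 to 8.94 at 6 h, 8.91 to 9.01 at 24 h and 8.69 to 8.79 at 48 h. With the mean of its probe sets, HSPE1 was called higher at 6 h (0.15, limma adjusted p = 0.0130) and at 24 h (0.18, 0.00288). The direction for HSPE1 thus differs by probe set. The genes most like HSPD1 in pattern were GTF3C6, HNRNPA2B1 and SZRD1 (r = 0.900, 0.888 and 0.886).

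Over the 36 probe sets of the 10 genes, in the fit of 45253 probe sets, 4 were higher and 4 lower at 6 h, 3 and 4 at 24 h, and 2 and 10 at 48 h. Among all probe sets 22%, 21.2% and 23.5% were higher and 11.7%, 12.2% and 14.9% lower (33.7%, 33.4% and 38.4% in either direction). Probe sets of 1 gene share a transcript and are not independent of each other.

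**Figure D2:**
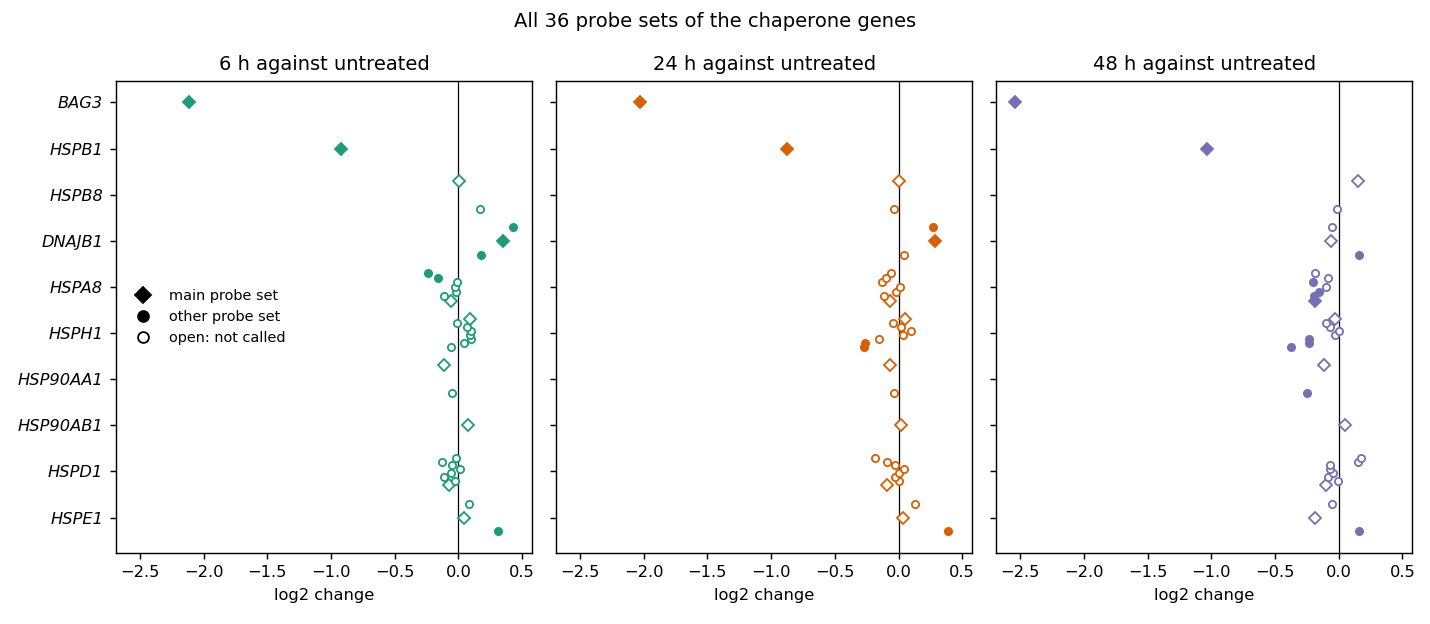
Log2 change against untreated at 6, 24 and 48 h for all 36 probe sets of the 10 genes, from the fit over 45253 probe sets, grouped by gene. BAG3 (−2.12 to −2.54) and HSPB1 lie far left with 1 probe set each, while the HSPE1 probe sets lie on both sides of 0 at 48 h.

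Partner genes were also set against each other within each array, as the difference of their log2 values, which cancels a shift common to both. Probe sets differ in brightness, so only the change of that difference is read. Between untreated and treated arrays it was tested by an exact two-sided permutation test of 4 against 4, whose smallest possible p is 0.0286, adjusted over 12 tests. HSP90AA1 minus HSP90AB1 fell from 0.51 to 0.67 untreated to 0.30 to 0.43 at 6 h, 0.42 to 0.49 at 24 h and 0.32 to 0.45 at 48 h, a change of −0.19, −0.09 and −0.17 (exact p = 0.0286 and adjusted p = 0.0381 each). At 24 h it was lost with the mean of probe sets (−0.07; exact permutation, adjusted p = 0.457). HSPH1 minus HSPA8 rose by 0.15, 0.12 and 0.15 (exact p = 0.0286, adjusted p = 0.0381 each), but with the mean of probe sets it did not at 24 h (0.00) or 48 h (0.03). With HSPB8 near the bottom of the scale, BAG3 minus HSPB8 (−2.12, −2.03 and −2.69) only restates the fall of BAG3. HSPD1 minus HSPE1 changed by −0.12, −0.13 and 0.09, none past the threshold (exact adjusted p = 0.0935, 0.0686 and 0.143), though with the mean of probe sets it passed at 6 and 24 h (−0.21 and −0.23), and at 6 h without untreated replicate 2 (−0.15). Without untreated replicate 3, none of the 6 differences called in the first 2 pairs passed after adjustment, where leaving out an array also lowers the number of arrangements. The 24 h value of HSP90AA1 minus HSP90AB1 was also lost without any 1 of the 24 h arrays, and the 48 h value of HSPH1 minus HSPA8 without any 1 of the untreated arrays.

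**Figure D3:**
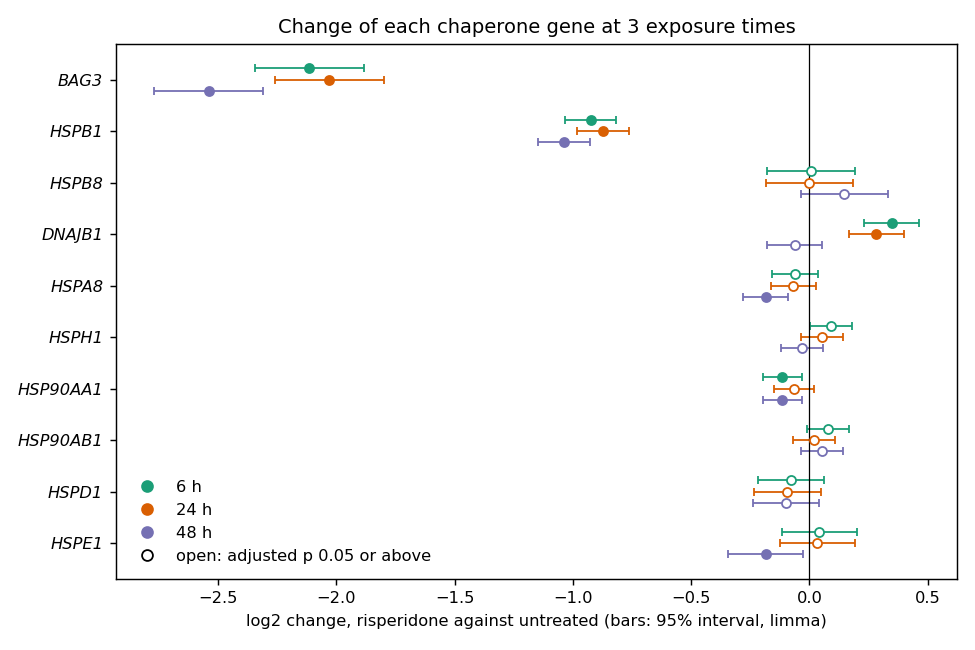
Log2 change of each gene against untreated at 6, 24 and 48 h, with the 95% limma interval; open marks were not called. BAG3 at −2.03 to −2.54 and HSPB1 near −0.9 to −1.0 stand apart, and DNAJB1 at 6 and 24 h gives the only values called above 0 in the main fit.

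Between the treated times, fewer genes were called in the first step than in the last, among the members and among all genes alike. From 6 to 24 h none of the 10 genes passed the limma test, against 2.4% of all genes, and the largest change was 0.09 (BAG3). From 24 to 48 h, 4 fell and none rose, against 15.1% of all genes lower and 28.6% in either direction: BAG3, DNAJB1, HSPB1 and HSPE1 (−0.22; adjusted p = 0.0383). From 6 to 48 h, 5 fell, against 17% lower and 33.6% in either direction: BAG3 (−0.43; 0.00629), DNAJB1, HSPE1 (−0.23; 0.0268), HSPH1 (−0.13; 0.0290) and HSPA8 (−0.13; 0.0433). The median of the 10 was −0.10 and −0.12 for the 2 steps, beside −0.01 and −0.01 over all genes. In each step 5 genes had groups that did not overlap, against 30.4% and 33% of all genes. Without 24 h replicate 2 the 24 to 48 h count was 2. The 6 to 48 h count was 3 without 6 h replicate 1, 3 or 4 or 48 h replicate 1 or 3, and 4 without each other array of those groups. From 6 to 48 h HSPA8 kept its call in 1 of the 8 fits that leave out an array, the one without 48 h replicate 4, and in 6 of 19 other fits in all. HSPH1 was lost without 6 h replicate 1 or 4 or 48 h replicate 1 or 3 and kept in 12 of 19. HSPE1 was lost in that step without 6 h replicate 3 or 48 h replicate 4, and from 24 to 48 h without any 1 of the 24 h arrays or 48 h replicate 4 (−0.14 and −0.13 without the last), and in both steps with only 8 arrays. The mesenchymal list moved less in these steps than against untreated. From 24 to 48 h, 5 of 20 fell and 2 rose (median −0.16). From 6 to 48 h, 4 fell and 3 rose (median 0.02). Among the treated arrays, DNAJB1 and BAG3 levels correlated at r = 0.895 and DNAJB1 and HSPA8 at 0.871, the 48 h arrays being low in all 3.

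The wider chaperone network was read from lists of 104 related genes, of which 91 were tested. At 6 h 44 rose and 15 fell, at 24 h 37 and 14, and at 48 h 32 and 20, with medians of 0.14, 0.09 and 0.06. With cyclic loess scaling the splits were 24 and 19, 26 and 21, and 25 and 25, so the excess of risers depends on the scaling. The all-gene shares higher were 36.6%, 35.3% and 36%, and lower 16.7%, 16.9% and 21%.

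**Figure D4:**
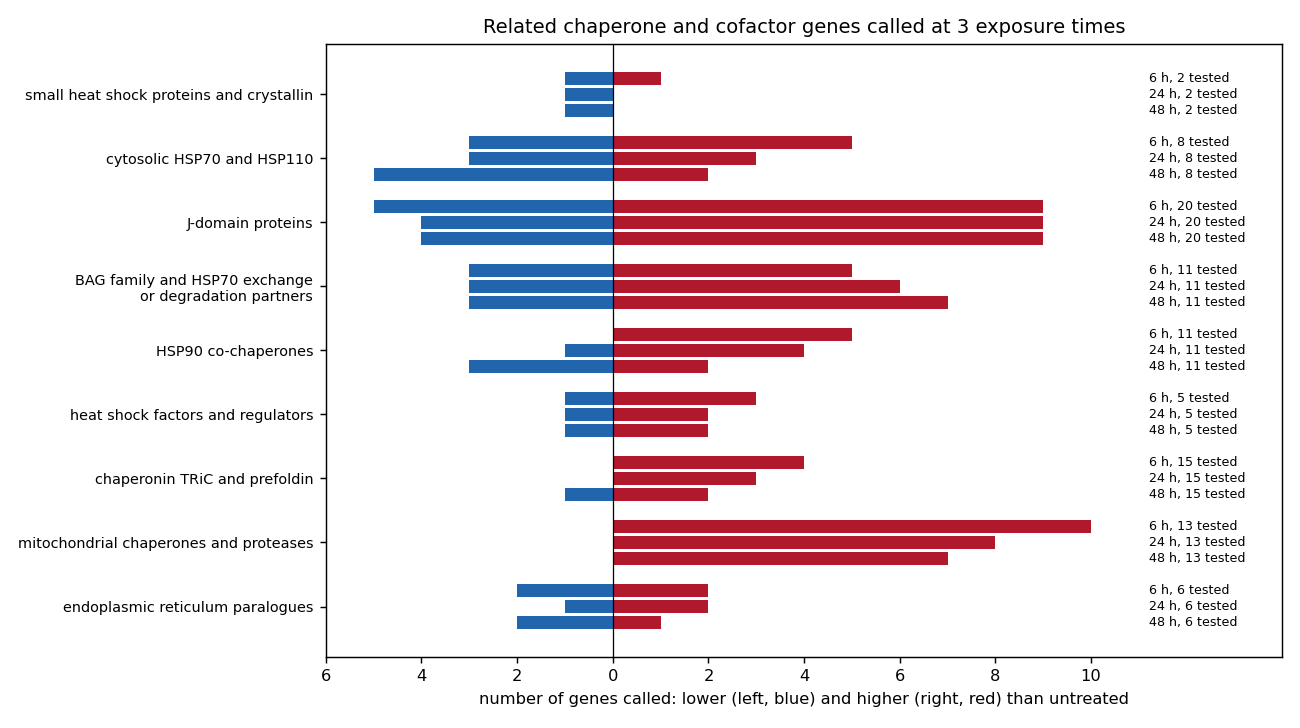
Number of genes in each related list that were called higher or lower than untreated at 6, 24 and 48 h. The mitochondrial list has risers and no fallers at each time, and the HSP70 list turns from 5 higher and 3 lower at 6 h to 2 higher and 5 lower at 48 h.

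Of the other small heat shock proteins, 5 (CRYAB, CRYAA, HSPB3, HSPB6 and HSPB9) were too dim to test. HSPB7 fell, by 0.44, 0.41 and 0.40 (not called at 6 and 48 h with the mean of its probe sets, −0.05 and −0.06), and HSPB2 rose only at 6 h (0.20; adjusted p = 0.0299), with overlapping groups, and not without untreated replicate 3, 6 h replicate 1 or 6 h replicate 4, nor after cyclic loess (0.09). In all, the HSPB2 rise was called in 11 of 18 other fits. In the cytosolic HSP70 and HSP110 list of 8, 5 rose and 3 fell at 6 h, 3 and 3 at 24 h, and 2 and 5 at 48 h (1 higher at 48 h without untreated replicate 1 or 48 h replicate 4). HSPA12A, an atypical HSP70, rose by 0.47, 0.80 and 0.91 (0.25, 0.45 and 0.46 averaged over its probe sets), and HSPA2, best known from the testis, fell by 0.63, 0.50 and 1.01. The stress-inducible HSPA1A and HSPA1B, named after their values were seen, changed by 0.13, −0.02 and −0.35 and by 0.20, 0.03 and −0.43, of which only the 6 and 48 h values passed (48 h adjusted p = 8.77e-06 and 1.15e-06). The 6 h values of both were lost after cyclic loess (0.06 and 0.10), and that of HSPA1A, 0.21 with the mean of its probe sets, without untreated replicate 1, 2 or 4 or 6 h replicate 1, 3 or 4, and the genes are near-identical copies, so their signals are uncertain between them.

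Of 20 J-domain proteins, which bring clients to HSP70, 9 rose at each time and 5, 4 and 4 fell (2 lower at 6 h without untreated replicate 3, and 3 without 6 h replicate 3). DNAJC6, the auxilin of neurons, rose by 0.65, 0.66 and 0.85 (0.39 at 6 h with the mean of probe sets), and DNAJC18 by 0.53, 0.53 and 1.41. Averaged over its probe sets, DNAJC18 rose by 0.34, 0.33 and 0.73, and the step from 24 to 48 h was 0.41 in place of 0.88. Of 11 BAG family members and HSP70 partners, 5, 6 and 7 rose and 3 fell at each time. BAG2, another nucleotide exchange factor, fell by 0.91, 0.88 and 1.07 (adjusted p = 5.68e-09, 8.91e-09 and 5.11e-10), which is less than BAG3. SYNPO2, an actin-associated BAG3 partner, fell by 0.31, 0.49 and 0.83, but with the mean of its probe sets by 0.31, 0.37 and 0.30. SQSTM1, the autophagy receptor p62, named after its values were seen, was the third, at −0.55, −0.32 and −0.34.

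Of 11 HSP90 co-chaperones, 5 rose and none fell at 6 h (3 higher without 6 h replicate 4, and 1 lower without untreated replicate 1), and 2 rose and 3 fell at 48 h. The 48 h counts were 1 higher without untreated replicate 1 or 48 h replicate 1, 2 or 3, and 1 lower without untreated replicate 3 or 48 h replicate 4. FKBP4 rose by 0.26, 0.32 and 0.25, of which the last 2 were 0.16 and 0.02 when its probe sets were averaged, the latter not called. FKBP5, a glucocorticoid-induced immunophilin, rose by 0.15 at 6 and 24 h and fell by 0.14 at 48 h, calls lost without 6 h replicate 2 or 3, without 24 h replicate 4, and without untreated replicate 3 or 48 h replicate 4, in that order. With the mean of its probe sets only the 6 h value of FKBP5 passed, and after cyclic loess only the 48 h one (−0.22). In a list of heat shock factors and regulators that also held a collagen chaperone, 5 genes were tested. HSF1 rose by 0.32, 0.42 and 0.62 (limma adjusted p = 0.00471, 0.000447 and 7.10e-06). HSF1 was named after its values were seen, and its 6 h change was 0.19 after cyclic loess. DEDD2 rose by 0.74, 0.63 and 0.62. SERPINH1, the collagen chaperone HSP47, fell by 0.51, 0.63 and 0.81. The transcript of HSF1 does not measure its activity.

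The 15 TRiC and prefoldin genes, which fold actin and tubulin, were mostly uncalled: 4 rose at 6 h, 3 at 24 h and 2 at 48 h, where 1 fell. PFDN5 rose by 0.36, 0.38 and 0.53. PFDN4 rose by 0.24 at 6 h and 0.34 at 48 h. The 6 h rise of PFDN4 was not called without untreated replicate 4 or 6 h replicate 2, nor after cyclic loess. Of 13 mitochondrial chaperones and proteases, 10, 8 and 7 rose and none fell at the 3 times, with medians of 0.20, 0.23 and 0.21; with cyclic loess 5, 7 and 6 rose and 1 fell at 6 h. CLPB, a mitochondrial disaggregase, rose by 0.32, 0.34 and 0.95 (0.24, 0.22 and 0.48 averaged over its probe sets, and 0.20 at 6 h after cyclic loess), and TRAP1, the mitochondrial HSP90, by 0.16, 0.23 and 0.47, the first lost after cyclic loess and the second 0.14 there. Of 6 genes of the endoplasmic reticulum, DNAJB9 rose by 0.48, 0.63 and 0.59, and HSP90B1, the HSP90 of that compartment, fell by 0.24, 0.16 and 0.18.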

How the data were processed

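The authors deposited 1 table of log2 expression values, which per the submitters' processing notes were made with RMA; the version is not given in the sources used here. Equalised distributions hide a change in total RNA per cell. Of 49386 probe sets, 93 were controls, 45253 had 1 gene symbol, 1327 several and 2713 none; the last 2 kinds were named for no gene. Each gene was given by its probe set of highest mean over the 16 arrays. limma 3.58.1 (R 4.3.3; lmFit and eBayes, 4 group means) tested 13680 genes with mean of at least 3.65, with Benjamini-Hochberg adjustment within each of 6 contrasts, and was tested on simulated data. A second fit covered all 45253 probe sets. Pair differences were tested by exact permutation over arrays, and correlations are descriptions. Array number limits precision. The members and lists were chosen with earlier results of these data known. The rule named all 10 members, the 2 genes of smallest F-test p in each related list, and the 3 genes most like 5 of the members. Alternatives covered probe sets, dim filter, scaling, moderation, array weights, replicate block, 8 arrays only and each array left out. AHSA1, TTC4, FLNA, FLNC, HSF2 and HSPB11 were listed but not analysed here.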

Additional observations from a re-analysis of the deposited data

Results flagged for a closer look

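In 4 of the 40 groups of 4 arrays looked at, 1 array stood far from the other 3; chance gives about 1 in 20 such groups. DNAJB1 in untreated replicate 3 read 9.56, where the others read 9.37 to 9.40. HSPA8 in 24 h replicate 4 read 13.33, where the other 3 all read 13.37. HSPE1 in 6 h replicate 3 read 11.87, where the others read 11.80 to 11.81, and in 48 h replicate 4 it read 11.33, where the others read 11.67 to 11.69.

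The change against untreated differed between 48 h and 6 h in 5 genes, each tested directly with limma and adjusted over all genes. The 48 h change minus the 6 h change was -0.43 for BAG3 (adjusted p = 0.00629), -0.41 for DNAJB1 (2.95e-05), -0.23 for HSPE1 (0.0268), -0.13 for HSPH1 (0.0290) and -0.13 for HSPA8 (0.0433). BAG3 was already lower at 6 h, while DNAJB1 was higher at 6 h and had returned. For HSPE1 the 48 h mean includes the array at 11.33. The HSPE1 difference was not called without that array (adjusted p = 0.0757) or without 6 h replicate 3 (0.0675). The HSPA8 difference was called in 1 of the 8 fits that leave out an array (without 48 h replicate 4) and in 6 of 19 alternatives, and that of HSPH1 in 4 of 8 (not without 6 h replicate 1 or 4 or 48 h replicate 1 or 3) and in 12 of 19.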

How the results depend on the processing

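BAG3 and HSPB1 against untreated at all 3 times, and DNAJB1 at 6 and 24 h, kept their direction and call in each of 19 alternatives. The number of members called at 24 h against untreated, 3, was 5 with quantile normalization applied again and 5 with cyclic loess. At 48 h, 5 became 3 with every probe set tested by itself and 3 with only the 8 arrays compared. From 24 to 48 h, 4 became 2 with every probe set tested, and from 6 to 48 h, 5 became 3 with every probe set tested, with cyclic loess and with only 8 arrays. Leaving out each array gave 4 to 4 at 6 h, 3 to 3 at 24 h, 3 to 5 at 48 h, 0 to 0 from 6 to 24 h, 2 to 4 from 24 to 48 h and 3 to 4 from 6 to 48 h. With the mean of probe sets, the change of SYNPO2 turned from -0.35 to 0.0667 from 24 to 48 h and from -0.52 to 0.0161 from 6 to 48 h, uncalled. The causes were not tested. Of 1134 member values under alternatives, 52 lost a call, 23 gained one and 63 uncalled values changed sign. None of those 63 was over 0.1 in size under the alternative, and the largest main value among them was 0.14.

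Replicate numbers did not pair the samples: same-numbered arrays correlated at -0.15 to 0.18 (median 0.05), 8 of 24 pairs were over 0.1, and 5 of 16 arrays correlated best with their own number. With the replicate block, 4, 3, 5, 0, 4 and 4 members were called in the 6 contrasts, HSPA8 from 6 to 48 h being lost (adjusted p = 0.0541). Signal limits HSPB8 and the probe sets near the bottom of the scale.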

Other observations

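A pair of probe sets carries an HSP90 symbol together with pseudogene symbols and was counted for no gene. The one for HSP90AB1 and HSP90AB3P had group means of 12.42, 12.40, 12.40 and 12.45 (untreated, 6, 24 and 48 h). The one for HSP90AA1, HSP90AA4P and HSP90AA2P read 13.11 to 13.29 untreated, 12.96 to 13.01 at 6 h, 13.02 to 13.07 at 24 h and 12.86 to 13.02 at 48 h, so all treated arrays lay below all untreated ones. These probe sets had no test of their own here.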
